A study of Mus musculus with 15 samples.

Results

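Imprinted genes of growth control were followed in the plantaris, a fast muscle of the mouse hindlimb. The 10 genes were chosen by name (H19, Igf2, Cdkn1c, Grb10, Peg10, Peg3, Dlk1, Meg3, Rian and Mirg), out of 20406 genes in the deposited count table, and all 10 were listed. H19 and Peg10 had been noted beforehand for high levels in the 3 libraries titled trained replicates 4 to 6. Values that involve those libraries are therefore given as a description, with no test.

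RNA of the plantaris of adult male mice was sequenced in 15 libraries, in 5 groups of 3. All groups carried the HSA-GFP transgenes, in which the human skeletal actin promoter drives a reverse tetracycline transactivator and a responsive element drives a green fluorescent histone 2B, so that muscle fibre nuclei are labelled. Trained mice (6M_PoW) ran for 8 weeks on a wheel with a rising load (PoWeR, progressive weighted wheel running) from 4 months of age and were sampled at 6 months, beside untrained mice of that age (6M_UT). Detrained mice (9M_PoW+DT) had the same training followed by 12 weeks without it and were sampled at 9 months, beside untrained mice of that age (9M_UT). The libraries titled as trained replicates 4 to 6 carried separate identifiers beginning with LD and are called 6M_POW_LD here. The meaning of LD is not stated in the labels.

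In 9 libraries the title and the treatment field disagree. The field gives the opposite condition for the 6 libraries of 9 months and sedentary for the 3 6M_POW_LD libraries. Groups follow the titles, so the direction of every comparison with 9-month or 6M_POW_LD libraries rests on them. Each age and the LD block has its own series of library identifiers, so neither age nor the LD label can be told apart from library series. The labels do not say whether the libraries of a group came from separate mice, so a p-value here reflects only the spread among libraries, which may be technical. Totals lay between 18865048 and 27688842 counts. The summed level of 10 fast fibre markers was 119322 to 160185 CPM (counts scaled to a library total of 1000000) over the 15 libraries, and none of these markers was at 0.

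Some libraries stood apart in genes of other cell types. Summed Schwann cell markers were 130 CPM in 6M_POW_LD replicate 5, 48.3 and 50.8 CPM in the other 6M_POW_LD libraries and 27.7 to 47.0 CPM in the remaining groups, red blood cell genes were 3112 CPM in 6M_POW_LD replicate 6 and 326 to 1040 CPM elsewhere, and adipocyte markers were 199 CPM in 9M_PoW+DT replicate 3 and 88.2 to 140 CPM elsewhere. Values without these 6M_POW_LD libraries are given for H19 and Peg10 only. Values without 9M_PoW+DT replicate 3 are given for all tested members in the detraining comparison and for some in the difference of contrasts.

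Imprinted genes are transcribed mainly from the copy inherited from 1 parent. As background, paternally expressed genes of this kind, such as Igf2, Peg3, Peg10 and Dlk1, often promote growth, whereas maternally expressed ones, such as H19, Cdkn1c and Grb10, often restrain it. Igf2 and H19 lie next to each other and share enhancers, and a methylated control region decides which of them is used on each chromosome. Meg3, Rian and Mirg are non-coding transcripts of the Dlk1 domain, are expressed from the maternal copy and contain many small RNAs. In muscle, H19 and Igf2 are abundant before birth and during regeneration, and H19 stays readily detected in adult fibres.

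The non-coding members are hosts of microRNAs, whose mature sequences are shown because the host transcript is what was counted here, while the microRNAs themselves were not measured. RefSeq (GRCm38.p6) placed 20 hairpins with 39 mature microRNAs within the spans of the members, of which 14 hairpins lay in Mirg, 3 in Rian and 1 each in H19, Igf2 and Meg3. Capitals mark the seed, bases 2 to 8, which pairs with targets. The H19 pair lies in an exon of 3 annotated H19 transcripts, on the minus strand at chr7:142577112-142577133 for the 5p arm and chr7:142577078-142577099 for the 3p arm, and has unlike seeds in its 2 arms.
mmu-miR-675-5p: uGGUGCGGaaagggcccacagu
mmu-miR-675-3p: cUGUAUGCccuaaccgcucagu
The Igf2 pair lies on the minus strand at chr7:142654968-142654989 and chr7:142654932-142654952, outside the Igf2 exons of GENCODE M21.
mmu-miR-483-5p: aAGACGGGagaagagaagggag
mmu-miR-483-3p: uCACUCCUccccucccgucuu
The 3 mature microRNAs placed in Meg3 include miR-1906 at chr12:109544588-109544609, in exons of 5 annotated transcripts. It lies apart from miR-770, so the 1 hairpin counted for Meg3 cannot hold both. Meg3 carries miR-770 on the plus strand, with its 5p arm at chr12:109563710-109563731 in exon 5 of 1 annotated transcript.
mmu-miR-770-5p: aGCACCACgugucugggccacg
Among the 39, the only seed found in more than 1 was GGUUGCC, in a pair from Mirg at chr12:109735669-109735692 and chr12:109739132-109739152.
mmu-miR-453: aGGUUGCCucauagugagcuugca
mmu-miR-496a-5p: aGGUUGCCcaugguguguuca

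Per kilobase of annotated exon, H19 stood far above the other members. Its mean was 122 CPM per kb over the 15 libraries, followed by Cdkn1c at 9.91, Grb10 at 3.06, Igf2 at 2.48, Peg3 at 1.52, Peg10 at 0.622, Meg3 at 0.543, Rian at 0.200, Mirg at 0.0253 and Dlk1 at 0.0212 CPM per kb. Neighbours in this order whose ranges over the libraries overlapped were Grb10 and Igf2, Igf2 and Peg3, Peg3 and Peg10, Peg10 and Meg3, and Mirg and Dlk1. By level per kilobase, H19 ranked 94 to 130 among 19929 genes in the 6M_POW_LD libraries and 216 to 601 in the other libraries. Among 646 intergenic long non-coding RNAs it ranked 1 to 6 in every library.

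Levels are given below in CPM with TMM scaling (edgeR's trimmed mean of M values). Of the 10 genes, 8 passed the filter on low counts and were tested with edgeR. Mirg and Dlk1 did not pass. Dlk1, a transmembrane protein related to Delta and known from adipocyte precursors, had 0 to 9 counts in a library and no count in 5 of 15 libraries. Mirg had 0 to 12 counts and no count in 2 of 15. A count of 0 allows up to 0.165 CPM in the shallowest library, for counting error alone.

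**Figure D1:**
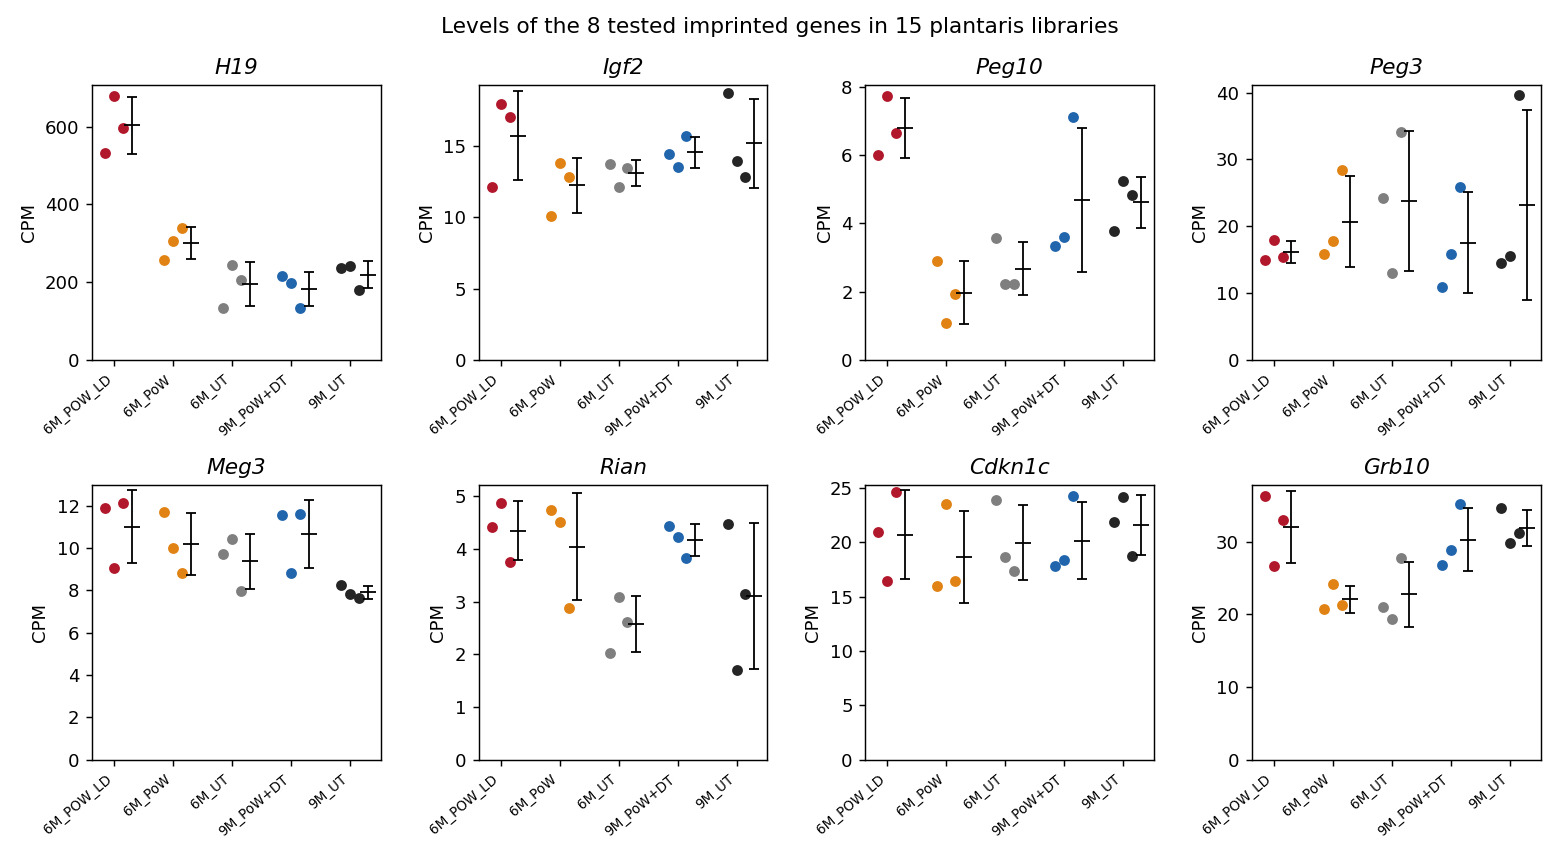
Levels in CPM (vertical axes, from 0) of the 8 tested imprinted genes, with 1 panel per gene and 1 point per library in 5 groups of 3. The horizontal tick and bar beside each group give the mean and SD. The 6M_POW_LD points of H19, at 533 to 680 CPM, lie above every other library. The points of Peg3 spread more in each of the other 4 groups than in 6M_POW_LD.

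H19, the growth-restraining non-coding RNA, was highest in the 6M_POW_LD libraries. It measured 533, 680 and 597 CPM in 6M_POW_LD libraries, 258, 305 and 340 CPM in 6M_PoW libraries and 134, 245 and 205 CPM in 6M_UT libraries. At 9 months it measured 215, 199 and 132 CPM in 9M_PoW+DT libraries and 236, 242 and 180 CPM in 9M_UT libraries. All 3 6M_POW_LD libraries lay above the other 12, whose highest was 340 CPM, and all 3 6M_PoW libraries lay above the 6M_UT libraries. The 9M_PoW+DT and 9M_UT libraries overlapped.

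In 6M_POW_LD against 6M_UT, the log2 fold change of H19 was 1.63 ± 0.24 (SE), or 3.10-fold, and against 6M_PoW it was 1.003 ± 0.238, or 2.00-fold. Against 6M_UT the value was 1.54 without 6M_POW_LD replicate 5 and 1.64 without replicate 6. In bulk muscle, more cells of a type that holds a transcript and more RNA per cell cannot be told apart. Summed satellite cell markers (9 genes, none at 0) were 156 to 162 CPM in 6M_POW_LD, 114 to 130 CPM in 6M_PoW and 113 to 142 CPM in 6M_UT libraries. Summed fibro-adipogenic progenitor markers (12 genes, none at 0) were 896 to 1011 CPM in 6M_POW_LD, 887 to 1034 CPM in 6M_PoW and 718 to 791 CPM in 6M_UT libraries. Summed macrophage markers (10 genes, none at 0) were 71.9 to 85.2 CPM in 6M_POW_LD, 64.0 to 87.3 CPM in 6M_PoW and 45.9 to 52.7 CPM in 6M_UT libraries. Summed mural cell markers (7 genes, none at 0) were 403 to 428 CPM in 6M_POW_LD, 406 to 440 CPM in 6M_PoW and 342 to 353 CPM in 6M_UT libraries. Summed tenocyte markers (8 genes, none at 0) were 103 to 130 CPM in 6M_POW_LD, 74.9 to 104 CPM in 6M_PoW and 68.7 to 90.9 CPM in 6M_UT libraries. Summed Schwann cell markers (8 genes, none at 0) were 48.3 to 130 CPM in 6M_POW_LD, 29.7 to 45.7 CPM in 6M_PoW and 37.5 to 41.8 CPM in 6M_UT libraries. Progenitor, macrophage and mural sums were thus higher than in 6M_UT in every 6M_POW_LD and 6M_PoW library. Satellite, tenocyte and Schwann sums were higher than in 6M_UT in every 6M_POW_LD library. No share over other sets of genes was computed, so nothing is read from the lack of overlap of these sums. Of the satellite markers, Itga7 alone averaged 93.1 CPM in 6M_POW_LD, 59.7 CPM in 6M_PoW and 62.8 CPM in 6M_UT libraries. Most of the higher satellite sum in 6M_POW_LD thus lay in this marker. Of all 9, 7 lay above 0 against 6M_UT and 4 against 6M_PoW. Summed endothelial markers (10 genes, none at 0) overlapped among these groups. They were 629 to 673 CPM in 6M_POW_LD, 634 to 698 CPM in 6M_PoW and 564 to 701 CPM in 6M_UT libraries. The part of these cell types in the H19 levels was not tested.

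Igf2, the secreted growth factor encoded beside H19, showed no such separation. It measured 12.2, 18.0 and 17.1 CPM in 6M_POW_LD libraries, 10.1, 13.8 and 12.8 CPM in 6M_PoW libraries and 13.8, 12.1 and 13.5 CPM in 6M_UT libraries. The 9-month values were 14.5, 13.6 and 15.7 CPM in 9M_PoW+DT libraries and 18.8, 14.0 and 12.8 CPM in 9M_UT libraries. The groups overlapped in every comparison. In 6M_POW_LD against 6M_UT its log2 fold change was 0.26 ± 0.16 (SE).

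The ratio of H19 to Igf2 counts within a library needs no scaling between libraries. It was 38.9 ± 4.5 in 6M_POW_LD, 24.7 ± 2.3 in 6M_PoW and 15.1 ± 5.3 in 6M_UT libraries (SD, n = 3 each). At 9 months the ratio was 12.7 ± 3.7 in 9M_PoW+DT and 14.6 ± 2.4 in 9M_UT libraries (SD, n = 3 each). The 3 groups of 6 months did not overlap, whereas the 9-month groups did. The lowest 6M_PoW ratio, 22.1, lay close to the highest 6M_UT ratio, 20.3. The ratio in 6M_POW_LD carries the H19 level noted beforehand. No share over other pairs of genes was computed, so nothing is read from the lack of overlap. Use of strand in counting is not stated, and 2 annotated transcripts overlap Igf2. The antisense Igf2os had 0 to 15 counts in a library, and the readthrough gene Gm49394 had 21 counts in 9M_PoW+DT replicate 2 and none elsewhere.

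Peg10, a protein derived from a retrotransposon and needed for the placenta, was the other member noted beforehand. It measured 6.00, 7.72 and 6.65 CPM in 6M_POW_LD libraries, 2.90, 1.07 and 1.93 CPM in 6M_PoW libraries and 3.57, 2.23 and 2.23 CPM in 6M_UT libraries. In the older mice it measured 3.34, 3.61 and 7.12 CPM in 9M_PoW+DT libraries and 3.78, 5.23 and 4.82 CPM in 9M_UT libraries. The 6M_POW_LD libraries lay above all others but 9M_PoW+DT replicate 3, whose 7.12 CPM lay within their range. Counts behind these values were 29 to 206 in a library.

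The log2 fold change of Peg10 was 1.35 ± 0.33 (SE), or 2.54-fold, in 6M_POW_LD against 6M_UT and 1.80 ± 0.34, or 3.48-fold, against 6M_PoW. Against 6M_UT it was 1.24 without 6M_POW_LD replicate 5 and 1.36 without replicate 6. Sgce, the imprinted neighbour transcribed away from Peg10, measured 4.07, 3.75 and 3.79 CPM in 6M_POW_LD libraries and 2.92 to 4.95 CPM over the other 12 libraries. The ratio of Peg10 to Sgce counts was 1.76 ± 0.29 in 6M_POW_LD, 0.492 ± 0.158 in 6M_PoW and 0.722 ± 0.140 in 6M_UT libraries (SD, n = 3 each). At 9 months it was 1.06 ± 0.58 in 9M_PoW+DT and 1.26 ± 0.46 in 9M_UT libraries (SD, n = 3 each), and 9M_PoW+DT replicate 3 at 1.73 and 9M_UT replicate 2 at 1.79 lay within the 6M_POW_LD range. Summed adipocyte markers (7 genes, none at 0), high in 9M_PoW+DT replicate 3, were 88.2 to 140 CPM in 6M_POW_LD libraries and 108 to 123 CPM in 6M_UT libraries. Their part in the Peg10 level of replicate 3 was not tested.

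**Figure D2:**
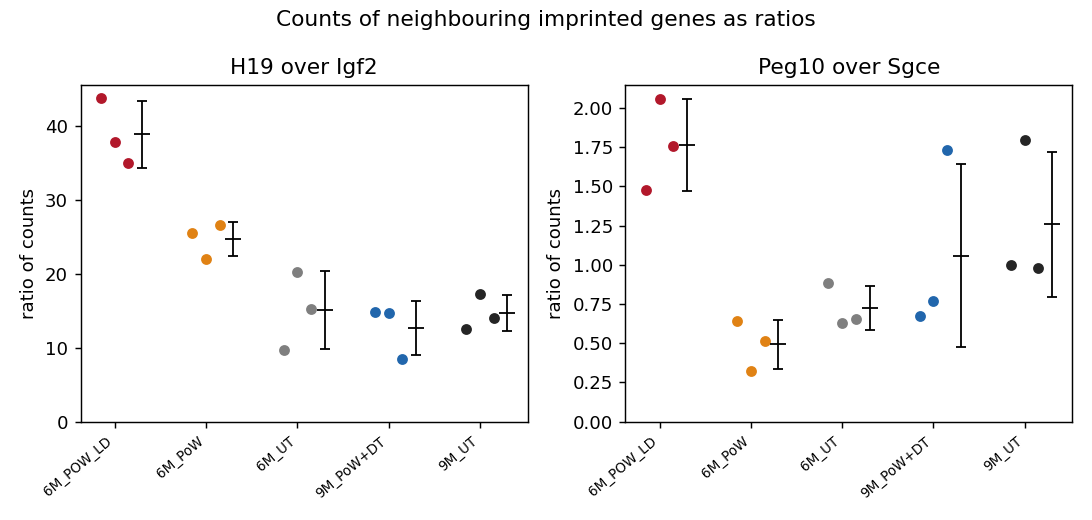
Ratio of H19 to Igf2 counts (left) and of Peg10 to Sgce counts (right), with 1 point per library in 5 groups and the mean and SD beside them. The H19 ratio lies at 35.0 to 43.8 in 6M_POW_LD libraries and at 9.71 to 20.3 in 6M_UT libraries, and the Peg10 ratio at 1.47 to 2.06 in 6M_POW_LD libraries and 0.630 to 0.883 in 6M_UT libraries.

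Among the other tested members, Rian was the third whose 6M_POW_LD libraries all lay above 6M_UT, with a log2 fold change of 0.75 ± 0.29 (SE). Grb10 was the third member whose 6M_POW_LD libraries all lay above 6M_PoW, with 0.53 ± 0.14. In all, 3 of 8 tested members did not overlap in 6M_POW_LD against 6M_UT, all with 6M_POW_LD higher, where 25.2% of 15181 genes did not and 12.6% had 6M_POW_LD higher. Against 6M_PoW they were also 3 of 8, all higher, where 21.4% of genes did not overlap and 10.7% were higher. The members were named with these levels in view, so nothing is read from those counts.

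Trained and untrained mice of 6 months were compared to ask whether the imprinted genes moved with 8 weeks of loaded running. None of the 8 tested members passed edgeR's quasi-likelihood test at an adjusted p of 0.05 over 14919 genes, and 0.00% of all genes did. At an unadjusted p of 0.05, 1455 genes and 1 member, H19, passed, and DESeq2 called 112 genes and no member. The log2 fold change of H19 was 0.63 ± 0.25 (SE), or 1.55-fold, and higher in 3 of 3 trained libraries, with an edgeR adjusted p of 0.463. With the 6M_POW_LD libraries counted as trained, as their titles read, this value was 1.22, and with them counted as untrained, as their treatment field reads, it turned to -0.41. H19 was the 1 member of 8 whose groups did not overlap, against 16.2% of all tested genes in either direction and 7.89% higher in trained mice.

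Rian had a log2 fold change of 0.65 ± 0.31 (SE), with an edgeR adjusted p of 0.510. It measured 4.73, 4.51 and 2.88 CPM in 6M_PoW libraries and 2.02, 3.08 and 2.62 CPM in 6M_UT libraries, so 2 of 3 trained libraries lay above all untrained ones. Peg10 had -0.45 ± 0.37, which turned to 0.72 with the 6M_POW_LD libraries counted as trained and was -1.28 with them counted as untrained. Peg3 had -0.20 ± 0.52. The other 4 members lay close to 0, at 0.12 ± 0.16 for Meg3, -0.09 ± 0.16 for Igf2, -0.09 ± 0.17 for Cdkn1c and -0.04 ± 0.14 for Grb10. For Grb10 the nominal 95% interval was -0.31 to 0.23, and for Igf2 it was -0.40 to 0.21. The median over the 8 members was -0.07, beside 0.00 over all tested genes.

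**Figure D3:**
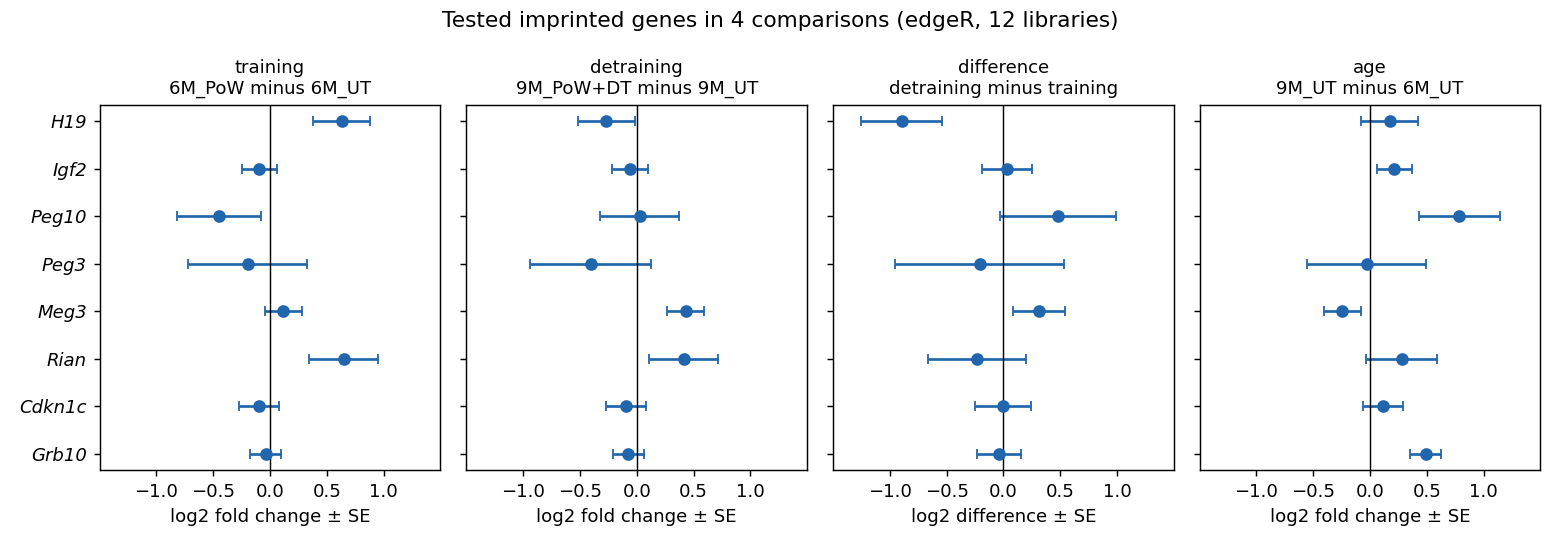
Log2 fold change with its SE (horizontal axes) of the 8 tested members in the training, detraining and age comparisons, and the log2 difference between the detraining and training effects, from edgeR on 12 libraries. The vertical line marks 0. H19 lies at 0.63 in the training panel and at -0.27 in the detraining panel, and Grb10 lies at 0.49 in the age panel.

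Detrained mice were compared with untrained mice at 9 months to ask whether a change persisted 12 weeks after training. None of the 8 tested members passed the edgeR test, and 0.0201% of 14919 genes did, which were 3 genes, all lower. At an unadjusted p of 0.05, 972 genes and 1 member passed, and DESeq2 called 30 genes and no member. That member was Meg3, a non-coding RNA known to restrain cell growth, at 11.6, 8.82 and 11.6 CPM in 9M_PoW+DT libraries and 8.26, 7.82 and 7.63 CPM in 9M_UT libraries. All 3 detrained libraries lay above the untrained ones, with a log2 fold change of 0.43 ± 0.16 (SE), or 1.35-fold, and an edgeR adjusted p of 0.690. It was 1 member of 8 with groups that did not overlap, against 11.9% of all tested genes in either direction and 6.19% higher in detrained mice. With the 9-month titles exchanged, as the treatment field reads, its direction turns by construction.

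Rian, which lies downstream of Meg3 in the same domain, had a log2 fold change of 0.41 ± 0.31 (SE) in the detrained mice. Its levels were 4.43, 4.22 and 3.84 CPM in 9M_PoW+DT libraries and 4.48, 1.71 and 3.15 CPM in 9M_UT libraries, and the groups overlapped. The count ratio of Meg3 to Rian was 2.57 ± 0.47 in 9M_PoW+DT and 2.95 ± 1.44 in 9M_UT libraries (SD, n = 3 each). H19 had -0.27 ± 0.25, Peg3 -0.40 ± 0.53, Igf2 -0.06 ± 0.16, Cdkn1c -0.10 ± 0.18 and Grb10 -0.07 ± 0.14. Peg10 had 0.03 ± 0.35, and without 9M_PoW+DT replicate 3, the library with the high adipocyte markers, it had -0.40. Without that library H19 had -0.08, Peg3 -0.79, Igf2 -0.12, Cdkn1c -0.25 and Grb10 -0.20, while Meg3 had 0.37 and Rian 0.47. Peg3 turned to 0.22 without 9M_UT replicate 3, and Igf2 turned to 0.12 without 9M_UT replicate 1. The direction of these 2 members thus rested on single untrained libraries. The median over the 8 members was -0.07, beside 0.00 over all tested genes.

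The 250 bases before and 50 after an annotated start are shown for Meg3, the member whose groups did not overlap in the detrained mice. The same is shown for Peg3, the member with the widest spread described below. Both come from RefSeq (GRCm38.p6), where 7 of the 10 members had an entry. Capitals mark the cAMP response element TGACGTCA, which reads the same on both strands, and the TATA box TATAAA, searched on both strands. Of 32851 promoter windows of this length, 1.79% held TGACGTCA and 13.6% held TATAAA. A further Meg3 window, at chr12:109545148-109545447, holds neither and is not shown. The Meg3 window shown lies on the plus strand at chr12:109540746-109541045. It holds TGACGTCA 57 bases before its start and overlapping TATAAA matches on both strands.
Meg3: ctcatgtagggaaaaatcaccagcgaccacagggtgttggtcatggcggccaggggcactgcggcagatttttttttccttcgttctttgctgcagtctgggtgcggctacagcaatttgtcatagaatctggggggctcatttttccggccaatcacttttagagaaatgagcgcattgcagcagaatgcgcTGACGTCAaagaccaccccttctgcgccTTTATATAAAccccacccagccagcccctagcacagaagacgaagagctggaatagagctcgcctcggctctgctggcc
Peg3 holds TGACGTCA 178 bases before its start and no TATAAA, on the minus strand at chr7:6730370-6730669.
Peg3: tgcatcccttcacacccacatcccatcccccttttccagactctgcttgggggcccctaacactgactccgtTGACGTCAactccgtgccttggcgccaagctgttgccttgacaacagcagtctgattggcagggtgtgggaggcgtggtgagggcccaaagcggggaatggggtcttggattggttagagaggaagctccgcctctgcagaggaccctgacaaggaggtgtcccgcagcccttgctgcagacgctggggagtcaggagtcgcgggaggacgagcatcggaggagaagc
These matches describe the letters of the windows and were not tested against any level.

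Whether the effect after detraining differed from the effect of training was tested as the difference of both contrasts. None of the 8 tested members passed the edgeR test, and 0.0268% of 14919 genes did, which were 4 genes, all lower. At an unadjusted p of 0.05, 1414 genes and 1 member passed, and DESeq2 called 111 genes and no member. For H19, the log2 difference was -0.90 ± 0.35 (SE), with an edgeR adjusted p of 0.472 and 0.116 by DESeq2. With the 6M_POW_LD libraries counted as trained the H19 difference was -1.48, and with them counted as untrained it was 0.14. With the 9-month titles exchanged, as the treatment field reads, the difference was -0.36 for H19, -0.55 for Meg3, -1.06 for Rian and 0.60 for Peg3. Under that reading it was 0.42 for Peg10, 0.15 for Igf2, 0.19 for Cdkn1c and 0.11 for Grb10. The difference for Peg10 was 0.48 ± 0.51, which was 0.05 without 9M_PoW+DT replicate 3, turned to -0.69 with 6M_POW_LD counted as trained and was 1.30 with it counted as untrained. The same value was 0.31 ± 0.23 for Meg3, -0.23 ± 0.43 for Rian and -0.21 ± 0.75 for Peg3. For Peg3 it turned to 0.42 without 9M_UT replicate 3 and was -0.60 without 9M_PoW+DT replicate 3. It was 0.04 ± 0.22 for Igf2, -0.03 ± 0.19 for Grb10 and 0.00 ± 0.25 for Cdkn1c, and without that library -0.02 for Igf2, -0.16 for Grb10 and -0.16 for Cdkn1c.

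Untrained mice of 9 months were compared with untrained mice of 6 months. None of the 8 tested members passed the edgeR test, and 0.0134% of 14919 genes did, which were 2 genes, both higher. At an unadjusted p of 0.05, 1003 genes and 2 members passed, and DESeq2 called 58 genes and no member. Grb10, an adaptor that binds the insulin and IGF1 receptors and dampens their signal, measured 34.6, 29.8 and 31.2 CPM in 9M_UT libraries and 21.1, 19.3 and 27.8 CPM in 6M_UT libraries. All 3 older libraries lay above the younger ones, with a log2 fold change of 0.49 ± 0.14 (SE), or 1.40-fold, and an edgeR adjusted p of 0.442. With 1 library of either group left out, the edgeR adjusted p was 0.116 without 6M_UT replicate 3, the highest of the younger libraries, and 0.569 to 0.735 without each of the others. With the 6M_POW_LD libraries counted as untrained, as their treatment field reads, the Grb10 value was 0.22.

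Peg10 was the other member whose libraries did not overlap between the ages, with a log2 fold change of 0.79 ± 0.36 (SE), or 1.72-fold, and an edgeR adjusted p of 0.724. With the 6M_POW_LD libraries counted as untrained it was -0.04. Together these were 2 of 8 members, against 11.8% of all tested genes in either direction and 5.34% higher in the older mice. Trained mice of 6 months had 20.8, 24.2 and 21.2 CPM of Grb10, detrained mice of 9 months had 26.8, 28.8 and 35.1 CPM, and 6M_POW_LD libraries had 36.3, 26.6 and 33.0 CPM. Grb10 was thus high in the 9-month and the 6M_POW_LD libraries and low in the other 6-month libraries, apart from 6M_UT replicate 3. The remaining log2 fold changes with age were 0.28 ± 0.31 for Rian, 0.21 ± 0.16 for Igf2, 0.17 ± 0.25 for H19, 0.11 ± 0.17 for Cdkn1c, -0.03 ± 0.52 for Peg3 and -0.25 ± 0.16 for Meg3. The median over the 8 members was 0.19, beside -0.01 over all tested genes. With the 9-month titles exchanged, as the treatment field reads, Meg3 turned to 0.19 and H19 to -0.09 with age. Under that reading Peg3 had -0.43, Rian 0.69, Igf2 0.15, Cdkn1c 0.02, Grb10 0.41 and Peg10 0.81.

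Cdkn1c, which encodes the cyclin-dependent kinase inhibitor p57, had group means within a narrow range. It measured 20.9, 16.4 and 24.6 CPM in 6M_POW_LD libraries, 16.0, 23.5 and 16.5 CPM in 6M_PoW libraries and 23.9, 18.6 and 17.3 CPM in 6M_UT libraries. It measured 17.9, 18.3 and 24.3 CPM in 9M_PoW+DT libraries and 21.8, 24.2 and 18.7 CPM in 9M_UT libraries. The groups overlapped in every comparison.

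Peg3, a zinc finger protein known from growth and maternal behaviour, had the widest within-group spread of the tested members on the log2 scale. That spread was pooled over the groups without 6M_POW_LD. It measured 15.9, 17.8 and 28.5 CPM in 6M_PoW libraries and 24.2, 13.1 and 34.1 CPM in 6M_UT libraries. At 9 months it measured 10.9, 15.9 and 25.8 CPM in 9M_PoW+DT libraries and 14.6, 15.5 and 39.6 CPM in 9M_UT libraries. Replicate 3 was the highest of its group in each of these 4 groups, although the numbers are not stated to link the samples. In 6M_POW_LD libraries Peg3 measured 14.9, 17.9 and 15.4 CPM, with no high library.

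The within-group SD of Peg3 on the log2 scale was 0.655, above 99.3% of 2265 genes of like level, whose median was 0.153. For H19 it was 0.332, above 93.9% of 363 genes of like level. Peg10 had 0.505, above 89.4% of 1687 genes, and Meg3 had 0.184, above 36.9% of 2153 genes. The neighbour of Peg3, Zim1, measured 1.98 to 4.17 CPM over the same 12 libraries. The 5 genes most like Peg3 over these 12 libraries, by Pearson correlation of log2 CPM among 11339 genes, were Cdc14b (0.92), Ythdc1 (0.91), Crnkl1 (0.90), Mlycd (0.89) and Vcpip1 (0.88). This ranking was added after the spread of Peg3 had been seen.

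By the same measure, the genes most like H19 were Apbb2 (0.93), Cyp2j6 (0.92), St6galnac3 (0.91), Cdk17 (0.90) and Tspan13 (0.90). Those most like Peg10 were Pfdn1 (0.93), Tecr (0.90), Pstpip2 (0.89), Dysf (0.88) and Flnc (0.88). For Igf2 they were Scai (0.85), Pcdhgb2 (0.83), Ccdc82 (0.82), Gemin4 (0.81) and Sdccag8 (0.81), and for Meg3 they were Ppp1r3e (0.90), Paqr4 (0.88), Nop16 (0.87), Rabggta (0.85) and Ptprd (0.82). None of these 25 genes was a member or on the list of other imprinted genes. High values of this size come with choosing 5 of 11339 genes over 12 libraries that share scaling, and they are a description.

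Between the 28 pairs of tested members, H19 and Peg10 had the most negative correlation of log2 CPM over the 12 libraries, with a Pearson r of -0.69 and a Spearman rho of -0.67. Without the 2 libraries farthest from the median of H19 the r was -0.66, and on deviations from the group means it was -0.70. In the 6M_POW_LD libraries, in contrast, both genes were high. Igf2 and Grb10 had the most positive value, with r of 0.72, rho of 0.69 and 0.54 on deviations from the group means. H19 and Igf2, which share enhancers, had r of -0.26 and rho of -0.37. Meg3 and Rian, of the same domain, had r of 0.49 and rho of 0.53. These values share the scaling of each library, cover groups with different treatments, and carry no test.

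**Figure D4:**
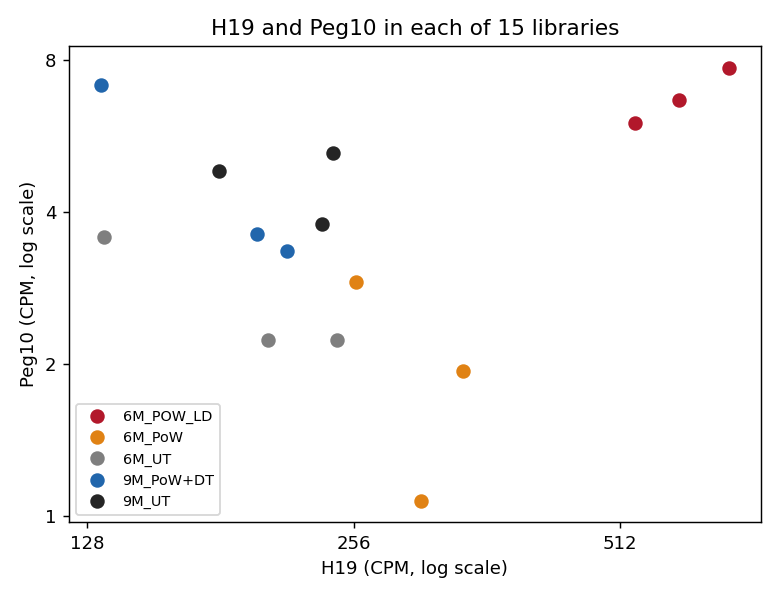
H19 (horizontal axis) against Peg10 (vertical axis), both in CPM on log scales, with 1 point per library of the 5 groups. Over the 12 libraries without 6M_POW_LD, Peg10 tends to be low where H19 is high (r of -0.69), and the 3 6M_POW_LD libraries lie apart at high values of both.

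Among 53 other imprinted genes, 45 were listed and 35 tested, and none passed the edgeR test in the training, detraining, difference or age comparison. In the training comparison 21 of 35 lay above 0, with a median log2 fold change of 0.04 beside 0.00 over all genes. Those with the smallest p were Dcn, encoding the matrix proteoglycan decorin, at 0.29 ± 0.09 (SE), Gnas, encoding a stimulatory G protein subunit, at -0.22 ± 0.07, and the non-coding Peg13 at -0.33 ± 0.13. In the detraining comparison 14 of 35 lay above 0, led by Impact, an inhibitor of the stress kinase GCN2, at -0.61 ± 0.14, Dcn at -0.25 ± 0.09 and Mest at 1.23 ± 0.49. In the difference of contrasts they were Dcn at -0.54 ± 0.13, Impact at -0.65 ± 0.19 and Nnat at 3.12 ± 0.89. With age, 21 of 35 lay above 0, led by Impact at 0.65 ± 0.14, Zdbf2 at 1.22 ± 0.39 and Dcn at 0.27 ± 0.09.

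The contrasts with 6M_POW_LD were used in choosing the members, and other imprinted genes are described there by their values alone. Zrsr1, a splicing factor gene, averaged 11.7 ± 1.0 CPM in 6M_POW_LD, 20.95 ± 3.56 CPM in 6M_PoW and 21.2 ± 2.1 CPM in 6M_UT libraries (SD, n = 3 each). Peg13 averaged 20.8 ± 0.4 CPM in 6M_POW_LD, 29.5 ± 3.4 CPM in 6M_PoW and 37.0 ± 3.3 CPM in 6M_UT libraries (SD, n = 3 each). In 6M_POW_LD against 6M_UT, Gnas had a log2 fold change of -0.29 ± 0.07 (SE), Nnat -2.60 ± 0.66, Commd1 0.42 ± 0.11 and Dcn 0.34 ± 0.09. Slc38a4, an amino acid transporter gene, averaged 166 ± 26 CPM in 6M_POW_LD, 99.6 ± 2.6 CPM in 6M_PoW and 99.4 ± 35.8 CPM in 6M_UT libraries (SD, n = 3 each). These genes thus lay on both sides of 0. Over 37 such genes the median log2 fold change was -0.08 in 6M_POW_LD against 6M_UT and -0.06 against 6M_PoW, with 15 and 16 above 0.

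Partners of the IGF ligands were examined from a list of 18, of which 17 were listed and 15 tested, and none passed the edgeR test in the 4 tested comparisons. Igf1, the growth factor induced by muscle loading, measured 12.3, 11.6 and 8.41 CPM in 6M_PoW libraries and 4.30, 5.63 and 4.02 CPM in 6M_UT libraries. All 3 trained libraries lay above the untrained ones, with a log2 fold change of 1.21 ± 0.22 (SE) and an edgeR adjusted p of 0.118, beside -0.09 ± 0.16 for Igf2. In the training comparison 11 of 15 lay above 0, and Igf2bp2, an RNA-binding protein, had 1.13 ± 0.45 and the receptor gene Igf1r 0.26 ± 0.14. In the detrained mice 4 of 15 lay above 0, led by the receptor substrates Irs2 at -1.63 ± 0.33 and Irs1 at -0.60 ± 0.19 and the insulin receptor gene Insr at -0.25 ± 0.09.

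With age, 12 of 15 lay above 0, led by Irs1 at 0.90 ± 0.19 (SE), Irs2 at 1.41 ± 0.33 and Htra1, a protease that cuts IGF binding proteins, at 0.57 ± 0.16. In the difference of contrasts 3 of 15 lay above 0, and Igf1 had -1.46 ± 0.32, Irs2 -1.90 ± 0.46 and Irs1 -0.74 ± 0.27. In 6M_POW_LD against 6M_UT, again as a description, Igf1 had 1.32 ± 0.22, Irs1 1.08 ± 0.23, Igf2bp2 1.69 ± 0.43 and the binding protein gene Igfbp5 1.33 ± 0.33. Against 6M_PoW, Irs1 had 0.93 ± 0.23, Igfbp5 1.07 ± 0.33 and Igf1r -0.30 ± 0.13. Igf2r, the imprinted receptor that clears IGF2, measured 85.7 to 105 CPM in 6M_POW_LD libraries, 78.9 to 94.8 CPM in 6M_PoW libraries and 79.0 to 82.8 CPM in 6M_UT libraries. These groups overlapped, except that all 6M_POW_LD libraries lay above 6M_UT.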

How the data were processed

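The authors deposited expected counts per gene for 15 libraries in 1 table. The share of values that are not whole was 26.2% to 31.3% per library. STAR 2.7.3a, DESeq2, Partek and the build mm10 are named, without roles, per the submitters' processing notes. Counting tool, strand use and annotation release are not stated in these notes. The values were rounded to whole numbers, which can shift only genes of a few counts. Genes were kept by filterByExpr, given TMM scaling and fitted with edgeR 4.0.16 (R 4.3.3) as a robust quasi-likelihood model with 1 mean per group. The 4 tested comparisons came from 12 libraries (14919 genes), and values with 6M_POW_LD from all 15 (15181 genes). Benjamini-Hochberg adjustment ran over all genes tested.

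The members and lists were chosen with earlier results of these data known. All members are named. From the lists of other imprinted genes and IGF partners, the 3 genes with the smallest p are named in each comparison, with those past the threshold in contrasts with 6M_POW_LD. The ranking of genes by likeness was limited to genes whose average log2 CPM reached 1. Genes of like level were those within 0.5 log2 CPM. Groups were taken as not overlapping where every library of one lay above every library of the other, and counts of members were the same on plain library totals and on median ratio scaling, an alternative chosen after seeing the data. Intervals are built from the estimate and its SE at a nominal 95% of the normal distribution. They are narrower than the quasi-likelihood test would give. Levels per kilobase used GENCODE M21 exons (GRCm38, the same assembly as mm10), where 98.9% of 19929 genes had the table's start and end. Libraries of 1 group differed by more than counting noise, which does not show that they came from separate mice. Each was counted as 1 sample. The method was checked on simulated counts. Alternatives were other scaling, filters, DESeq2 1.42.0, a replicate block, other readings of the labels and leaving out each library.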

Additional observations from a re-analysis of the deposited data

How the results depend on the processing

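There were 21 alternatives. Those that added the 6M_POW_LD libraries to 6M_PoW or 6M_UT are read for member values only, since H19 and Peg10 were noted there. Under the others, DESeq2 and each left-out library included, no tested member passed the threshold in the 4 tested comparisons. Of 672 single values of members, 630 moved by less than 1 SE and 42 by more. Many could not move, because the alternative left the compared groups as they were. H19 in the training comparison, for example, stayed at 0.63 without 9M_UT replicate 1. The share that stayed within 1 SE is therefore no measure of stability. The numbers of all genes called did change, and the cause was not tested. In the training comparison (0 genes), 8 were called with no filter on low counts, 1 with a replicate block, 29 with the 6M_POW_LD libraries added to 6M_PoW, 112 by DESeq2, and 0 to 10 with a library left out, most without 6M_UT replicate 3. In the detraining comparison (3 genes), 1 was called with 6M_POW_LD added to 6M_UT, 30 by DESeq2, and 1 to 6 with a library left out, most without 6M_UT replicate 1. In the difference of contrasts (4 genes), 10 were called with no filter, 2 and 1 with 6M_POW_LD added to 6M_PoW and to 6M_UT, 0 with the 9-month titles exchanged, 111 by DESeq2, and 0 to 26 with a library left out, most without 6M_UT replicate 3. With age (2 genes), 10 were called with no filter, 5 with a replicate block, 4 with 15 libraries in the fit, 4 with 6M_POW_LD added to 6M_PoW, 0 with the titles exchanged, 58 by DESeq2, and 1 to 15 with a library left out, most without 9M_PoW+DT replicate 3.

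The labels do not say whether the replicate numbers pair the samples. Correlations of same-numbered libraries' deviations from the group means lay between -0.219 and 0.155. Libraries of different numbers were not set beside them, so these values cannot settle whether the samples are paired. The block changed no call of a member. In 6M_POW_LD against 6M_UT, H19 kept a log2 fold change of 1.54 to 1.71 and Peg10 of 1.24 to 1.43 with each 6M_POW_LD library left out. Depth limits Dlk1 and Mirg, which had at most 9 and 12 counts in a library.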
